A study of Mus musculus with 6 samples.

Results

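The globins and the genes of red cell formation were followed in embryonic mouse kidneys without Sall1, a gene for a zinc finger protein that nephron progenitors need. The set was given by name. It holds the embryonic globins Hbb-y, Hbb-bh1 and Hba-x, the later globin Hba-a1, the transcription factors Gata1 and Klf1, the heme enzyme Alas2, the erythropoietin receptor Epor and the alpha globin chaperone Ahsp. Probes were assigned to genes through their RefSeq accession, and 8 of the 9 genes were found, with 9 probes among 40987 probes and 17235 named genes on the array. Hbb-bh1 had 2 of these probes and the other 7 genes had 1 each. Ahsp is not analysed here. All 8 genes were well above background on all 6 arrays.

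Each of 6 one-colour arrays measured RNA from E14.5 kidneys of mice whose strain is given as a hybrid of 129 and C57BL/6. Six2Cre knockouts (replicates 7 and 9) lost floxed Sall1 through a Cre directed to nephron progenitors, and Six2Cre controls (replicates 5 and 2) were their counterparts. The CreER knockout (replicate 5) came from the inducible line labelled Sall1CreERfSall1, where tamoxifen was given at E12.5, 48 hours before dissection, and the CreER control was replicate 2. The CreER knockout is titled CreER/flox and its control wt/flox, so in that pair carrying CreER and losing Sall1 cannot be told apart. A description mentions tamoxifen for all samples, and it is unclear whether the Six2Cre mice received it. Not stated in the labels are the Cre status of the Six2Cre controls, how many kidneys made up a sample, and whether the arrays came from separate embryos, so the p-values measure only the spread between these samples, which may be technical.

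Mouse embryos make hemoglobin in a developmental order. Primitive red cells arise in the yolk sac and carry the embryonic beta-type chains from Hbb-y and Hbb-bh1 and the embryonic alpha-type chain from Hba-x. Definitive red cells, which the fetal liver then releases, carry the adult chains from Hba-a1 and its near-identical copy Hba-a2 and from the adult beta genes. In a dissected kidney these transcripts come from blood in its vessels, and in bulk RNA fewer cells of a type and less RNA per cell cannot be told apart. GATA1 and KLF1 bind GATA and CACCC elements of many red cell genes, globin promoters among them. ALAS2 starts heme synthesis in erythroid cells, and EPOR is the receptor through which erythropoietin keeps erythroid progenitors alive.

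The stretches of 200 bases just before the annotated starts of the main genes show how these elements are placed in embryonic and later globin genes, and in the heme enzyme and receptor genes that stand beside them in the results. Sequences are from RefSeq for GRCm38.p6 and are written 5′ to 3′ on the gene's strand. Capitals mark GATA words (an A or T, then GATA, then an A or G), CACCC and CCAAT on either strand, so that a word on the opposite strand is printed as its reverse complement.
Hbb-y (chr7:103853208-103853407, minus strand): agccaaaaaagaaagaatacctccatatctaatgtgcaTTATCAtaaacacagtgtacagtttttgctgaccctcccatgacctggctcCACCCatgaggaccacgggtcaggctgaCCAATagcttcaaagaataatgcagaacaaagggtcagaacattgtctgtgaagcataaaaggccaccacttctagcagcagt
Hba-x (chr11:32276400-32276599, plus strand): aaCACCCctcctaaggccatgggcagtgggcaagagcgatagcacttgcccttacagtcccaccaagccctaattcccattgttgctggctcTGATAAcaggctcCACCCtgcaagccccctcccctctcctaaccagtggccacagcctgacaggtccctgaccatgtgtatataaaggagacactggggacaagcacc
Hba-a1 (chr11:32283472-32283671, plus strand): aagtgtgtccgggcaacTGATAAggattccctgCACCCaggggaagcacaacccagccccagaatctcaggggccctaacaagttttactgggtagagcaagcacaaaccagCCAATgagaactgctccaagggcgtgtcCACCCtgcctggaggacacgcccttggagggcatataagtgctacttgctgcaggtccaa
Hbb-bt (chr7:103813924-103814123, minus strand): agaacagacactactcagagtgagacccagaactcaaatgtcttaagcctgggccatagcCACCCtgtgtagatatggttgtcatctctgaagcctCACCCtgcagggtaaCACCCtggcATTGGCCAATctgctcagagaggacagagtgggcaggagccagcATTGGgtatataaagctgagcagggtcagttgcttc
Alas2 (chrX:150547217-150547416, plus strand): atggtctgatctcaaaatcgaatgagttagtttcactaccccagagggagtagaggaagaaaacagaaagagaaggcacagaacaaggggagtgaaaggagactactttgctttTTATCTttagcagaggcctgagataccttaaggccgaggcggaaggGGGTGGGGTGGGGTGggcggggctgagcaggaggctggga
Epor (chr9:21963577-21963776, minus strand): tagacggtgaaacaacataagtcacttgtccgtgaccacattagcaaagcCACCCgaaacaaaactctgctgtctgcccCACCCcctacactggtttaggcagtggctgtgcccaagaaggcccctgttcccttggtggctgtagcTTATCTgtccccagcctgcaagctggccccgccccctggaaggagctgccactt
Promoters were matched for 7 of the 9 listed genes. With positions counted from -1 at the last base before the start, Hbb-y had a GATA word at -162, CACCC at -111 and CCAAT at -83. Hba-x had a GATA word at -108, CACCC at -198 and -95, and no CCAAT in this window. Hba-a1 held a GATA word at -183, CACCC at -167 and -60, and CCAAT at -88. Hbb-bt, an adult beta globin gene that was not in the set and serves as a second later globin, held CACCC at -140, -104 and -89, CCAAT at -80, -75 and -36, and no GATA word in this window. Alas2 had a GATA word at -86 and CACCC at -40, -35 and -30 on the opposite strand, and Epor had a GATA word at -54 and CACCC at -150 and -121. Over 32851 promoters of the same length, 21.4% held a GATA word, 45.5% CACCC and 29.4% CCAAT. Words as short as these occur widely, and a match here describes the letters and not a bound site.

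The deleted gene was measured first, by 1 probe. Sall1 had log2 signals, relative to each array's 75th percentile, of -2.65 and -2.00 in Six2Cre knockouts 7 and 9, against -1.38 and -0.77 in Six2Cre controls 5 and 2. The CreER knockout was at -4.06, against -1.28 in its control. All 3 knockout arrays lay below all 3 control arrays. The Six2Cre difference was -1.25 (SE 0.37, limma adjusted p = 0.594), and it was -2.78 in the CreER pair. No source used here says whether the probe lies within the floxed part. Further values in this text are on the same scale, log2 signal minus the array's 75th percentile, and differences are knockout minus control.

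Six2Cre control 2 stood apart from the other arrays. The mean of 5 muscle markers was 3.49 above its own mean over the arrays there, against -1.09 to 0.14 on the other 5 arrays, and that of 4 hepatocyte markers was 2.98 above it, against -1.24 to 0.93. Ttr, another hepatocyte marker, did not pass the filter. On CreER knockout 5, 71.6% of probes were well above background, against 80.0% to 82.9% on the other arrays. Six2Cre knockout 7 and control 5 shared slide 1, and the other 4 arrays shared slide 2, so that each slide held a Six2Cre knockout and a Six2Cre control. Leaving out 1 Six2Cre array ends this balance. Values given without control 2 set knockouts on both slides against control 5 on slide 1, so slide and genotype are partly mixed in them. Of the 8 erythroid markers, which include 3 genes of the set, 7 were well above background on all 6 arrays. The summed level of the 8 markers took each array's 75th percentile as 1. It was 4.57 and 5.61 in Six2Cre knockouts 7 and 9, against 4.46 and 5.76 in controls 5 and 2. In the CreER knockout it was 5.44, against 2.60 in its control. Alas2, a gene of the set, and Slc4a1 were the brightest of the 8 and make up most of this sum. The mean deviation of the 8 markers from their own means was 0.42 and 0.07 in Six2Cre knockouts 7 and 9, against 0.18 and 0.59 in controls 5 and 2. It was -0.37 in the CreER knockout, against -0.89 in its control.

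Transcripts of the embryonic globins were higher in knockout kidneys on average, but none of the differences passed the test over all features. Hbb-y, the embryonic epsilon-type beta globin, was at 4.87 and 5.17 in Six2Cre knockouts 7 and 9, against 4.34 and 4.35 in controls 5 and 2. It was at 4.85 in the CreER knockout, against 3.66 in its control. Every knockout array exceeded every control array, and the lowest value of all was the CreER control. Hbb-y was 1.60-fold higher in Six2Cre knockouts (log2 difference 0.68, SE 0.26, n = 2 arrays each, limma adjusted p = 0.786). The pair on slide 1 gave 0.53 and that on slide 2 gave 0.82. With the slide as a block the adjusted p was 0.350.

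Hbb-bh1, the embryonic beta-type gene expressed earliest in the yolk sac, was at 1.18 and 1.69 in Six2Cre knockouts 7 and 9, against 0.71 and 0.66 in controls 5 and 2. The CreER knockout had 1.21 and the CreER control 0.45. The groups again did not overlap, and knockout 9 was the highest array. Its Six2Cre difference was 0.75 (SE 0.29, limma adjusted p = 0.799), or 1.68-fold. Its second probe gave 0.79 in the Six2Cre line and 0.32 in the CreER pair, where the first gave 0.75.

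Hba-x, the embryonic zeta-type alpha globin, was at 2.40 and 2.71 in Six2Cre knockouts 7 and 9, against 2.41 and 1.99 in controls 5 and 2. Its CreER values were 2.30 in the knockout and 1.55 in the control. Knockout 7 and control 5, on slide 1, were level, and the groups overlapped. The slide 1 pair differed by -0.01 and the slide 2 pair by 0.72, which gave a Six2Cre difference of 0.36 (SE 0.29, 95% interval -0.41 to 1.13). For Hba-x, 1 of the 3 pairs thus showed no excess in the knockout.

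**Figure D1:**
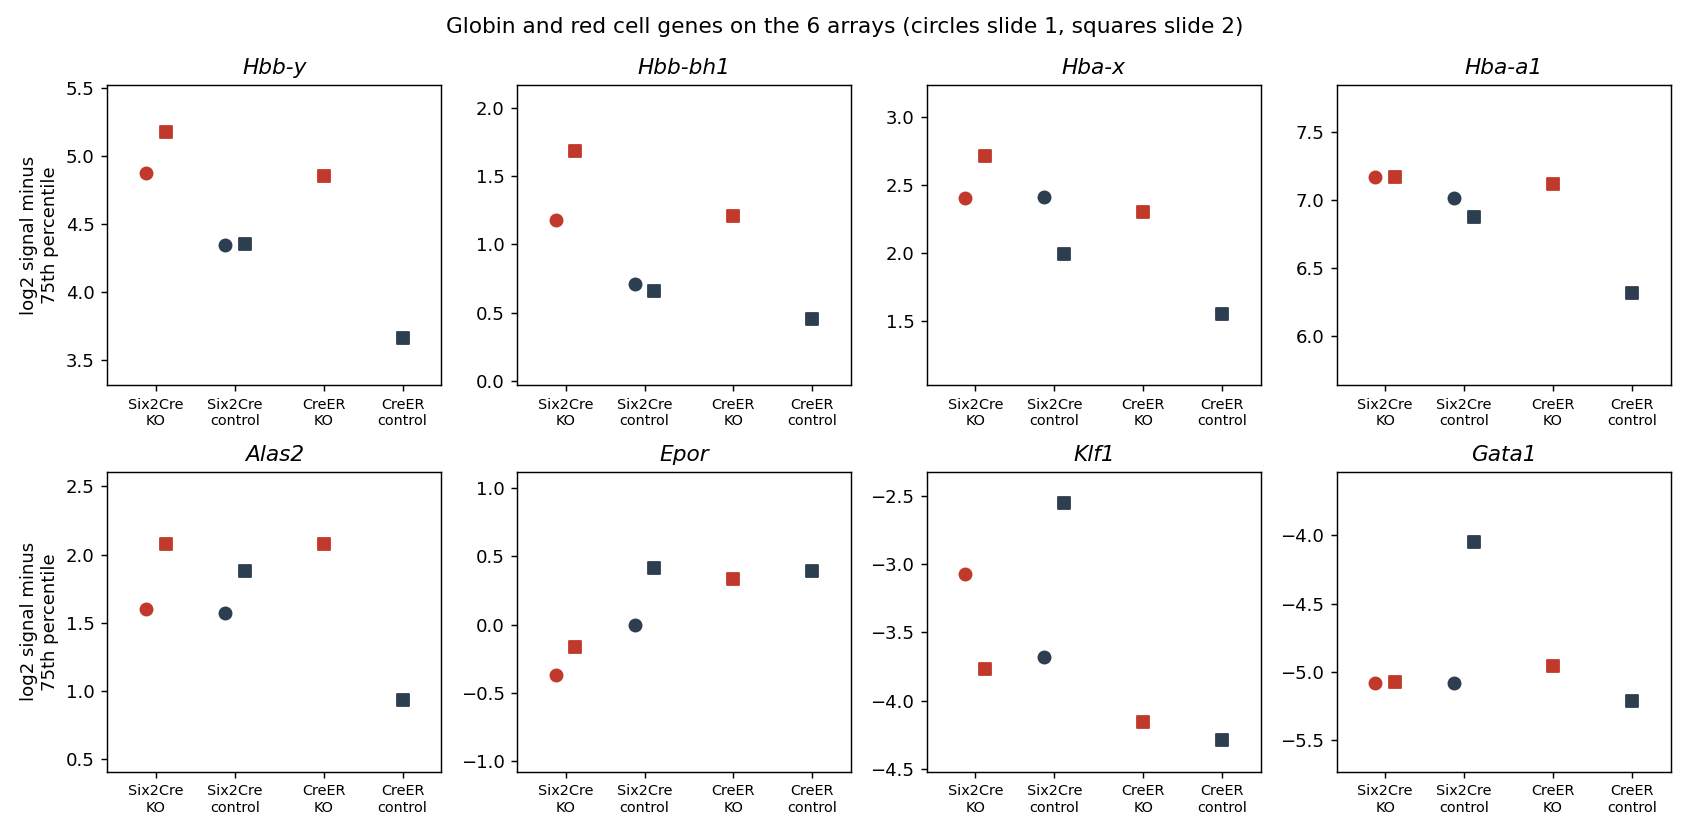
Log2 signal minus the array's 75th percentile (vertical axes) for the 8 genes found, in Six2Cre knockouts and controls and in the CreER knockout and control (horizontal axes); each point is 1 array, circles on slide 1 and squares on slide 2, and every panel spans the same number of log2 units. The 3 knockout arrays lie above the 3 control arrays for Hbb-y, Hbb-bh1 and Hba-a1, while Gata1 and Klf1 are highest on Six2Cre control 2.

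The later globins showed smaller differences in the Six2Cre line and larger ones in the CreER pair. Hba-a1, the adult alpha globin, was at 7.17 on both Six2Cre knockout arrays, against 7.02 and 6.87 in controls 5 and 2. It was at 7.11 in the CreER knockout, against 6.32 in its control. The knockout arrays lay close together, above all 3 control arrays. The Six2Cre difference was 0.22 (SE 0.24, 95% interval -0.41 to 0.85) and the CreER difference was 0.79. The probe's signal was 24.9% to 44.3% of the scanner's saturation value and no spot was saturated. Hba-a1 shares nearly all of its sequence with Hba-a2, so that the probe may read both.

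Hbb-bt was at 7.48 and 7.29 in Six2Cre knockouts 7 and 9, against 7.30 and 7.09 in controls 5 and 2. The CreER knockout had 7.30 and its control 6.58. Knockout 9 was just below control 5, so these groups overlapped. The Six2Cre difference was 0.19 (SE 0.25), with 0.19 in each slide's pair, and the CreER difference was 0.72. The 4 probes of Hbb-bt gave 0.05 to 0.45 in the Six2Cre line and 0.63 to 0.89 in the CreER pair. The adult beta genes are near copies of each other, and these probes may read more than 1 of them.

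Alas2, the erythroid enzyme that starts heme synthesis, was at 1.60 and 2.08 in Six2Cre knockouts 7 and 9, against 1.57 and 1.88 in controls 5 and 2. Its CreER values were 2.08 in the knockout and 0.94 in the control. The Six2Cre groups overlapped, and the CreER control lay below all other arrays. For Alas2 the Six2Cre difference was 0.11 (SE 0.30, 95% interval -0.68 to 0.91). The pair on slide 1 gave 0.03 and that on slide 2 gave 0.20. Left without control 5 the Six2Cre difference was -0.04, and without knockout 9 it was -0.13. In both of these the slides were no longer balanced between knockouts and controls. In the CreER pair Alas2 was 2.20-fold higher in the knockout (1.14).

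Epor was the 1 gene of the 8 that was lower in the knockout of every pair, as were 14.3% of all features. It was at -0.37 and -0.16 in Six2Cre knockouts 7 and 9, against 0.00 and 0.41 in controls 5 and 2. The CreER knockout had 0.33, against 0.40 in its control. Both Six2Cre knockouts lay below every other array, whereas the CreER knockout lay above Six2Cre control 5. Epor was 1.39-fold lower in Six2Cre knockouts (-0.47, SE 0.28, limma adjusted p = 1.00), with -0.37 on slide 1 and -0.57 on slide 2. The CreER difference was -0.06.

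Gata1 and Klf1, the master transcription factors of the red cell lineage, did not follow the globins. Gata1 was at -5.08 on both Six2Cre knockout arrays, against -5.08 and -4.05 in controls 5 and 2. It was at -4.96 in the CreER knockout, against -5.21 in its control. Control 2 lay above the other 5 arrays, which were close together. The Six2Cre difference was -0.51 (SE 0.41), and 0.00 when control 2 was left out. Its signal was dim, between 2.75 and 14.4 times the dimmest signal that was well above background on the same array.

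Klf1 was at -3.07 and -3.77 in Six2Cre knockouts 7 and 9, against -3.68 and -2.55 in controls 5 and 2. The CreER knockout was at -4.16 and its control at -4.29. Control 2 was again the highest array, and both CreER arrays were the lowest. The pairs went opposite ways in the Six2Cre line, 0.61 on slide 1 and -1.22 on slide 2. The difference of -0.31 (SE 0.49) became 0.26 without control 2 and 0.04 without knockout 9. The muscle and hepatocyte markers that were high on control 2 stood beside Gata1 and Klf1, and their part in these values was not tested.

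**Figure D2:**
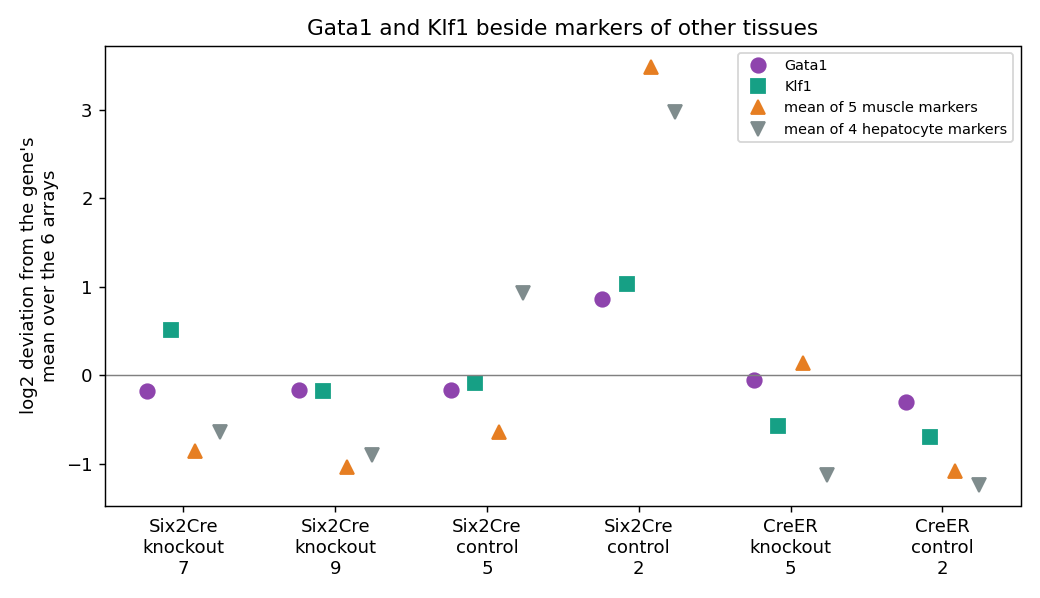
Deviation in log2 units of Gata1, Klf1 and the means of 5 muscle and 4 hepatocyte markers from their own means over the 6 arrays (vertical axis), for each array (horizontal axis, knockouts left of controls within a line). Muscle markers at 3.49, hepatocyte markers at 2.98 and both transcription factors are highest on Six2Cre control 2.

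Counted over the set, no gene passed an adjusted p of 0.05 in the Six2Cre comparison with limma, and the share of all 26394 features that passed was 0.00%. At an unadjusted p under 0.05, 1 of the 8 genes was higher, Hbb-y, against 3.63% of all features, and none was lower, against 2.70%. With the slide as a block 2 were higher, Hbb-y and Hbb-bh1, against 7.04% of features, and none was lower, against 4.54%. Again none passed after adjustment (0.00% of features). The limma fit of genotype on the 6 arrays together, adjusted for line and slide, gave 0.85 for Hbb-y (SE 0.17, adjusted p = 0.378) and 0.75 for Hbb-bh1 (SE 0.16, adjusted p = 0.385). In that fit the other values were 0.49 for Hba-x, 0.41 for Hba-a1, 0.46 for Alas2, -0.34 for Epor, -0.26 for Gata1 and -0.16 for Klf1. None of the 8 genes passed after adjustment, as for all features (0.00%), and 2 were higher at an unadjusted p under 0.05, against 5.79% of features, with none lower, against 3.92%.

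Hbb-y, Hbb-bh1, Hba-a1 and Alas2, which are 4 of the 8 genes, were higher in the knockout of all 3 pairs, against 20.0% of features. Epor, 1 of 8, was lower in all 3, against 14.3%. For Hbb-y, Hbb-bh1 and Hba-a1, 3 of the 8, the 3 knockout arrays lay entirely above the 3 control arrays, against 6.81% of features, and for 0 of 8 they lay entirely below, against 4.44%. Values of the globins ran together over these arrays, so the counts are not of independent genes.

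**Figure D3:**
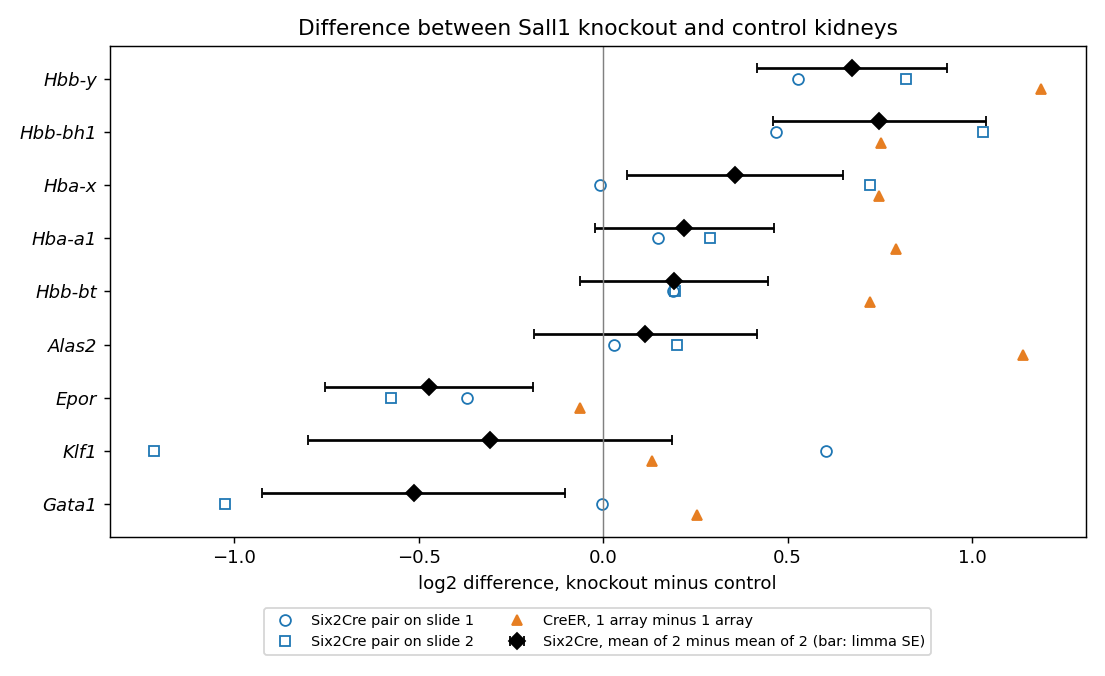
Log2 difference, knockout minus control (horizontal axis), for each globin and red cell gene (rows); diamonds are the Six2Cre difference with its limma SE (n = 2 arrays each), open circles and squares the Six2Cre pairs on slides 1 and 2, and triangles the CreER pair. Hbb-y and Hbb-bh1 are above 0 in all 3 pairs, from 0.47 to 1.19, and Epor is below 0 in all 3.

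The CreER pair has 1 array a group and allows no test. There 7 of the 8 genes were higher in the knockout, against 48.9% of all features. Hbb-y (2.28-fold) and Alas2 were at least 2-fold higher, against 1.38% of the features measured in that pair. None was at least 2-fold lower, against 2.21%. The differences between the lines, CreER minus Six2Cre, were 1.03 for Alas2 (SE 0.52), 0.57 for Hba-a1 (SE 0.42), 0.51 for Hbb-y (SE 0.44) and 0.00 for Hbb-bh1 (SE 0.50). All 8 had a limma adjusted p of 1.00, and 0.00% of features passed. None was under 0.05 before adjustment in this fit, against 2.33% of features, while Alas2 was under it with the slide as a block (limma adjusted p = 0.885) or with normexp background correction (limma adjusted p = 1.00). The CreER control was the lowest of the 6 arrays for each of the 4 globins, by the probe that stands for the gene, and for Alas2, so that every CreER difference of these genes contains that array's low level. By the second Hbb-bh1 probe the lowest array was Six2Cre control 5 (-0.36), below the CreER control (-0.25).

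Whether embryonic globins differed more than later ones was read from deviations, because levels of different probes cannot be set against each other. Each gene's values were taken relative to its mean over the 6 arrays, and the deviation of Hba-a1 was subtracted from the mean deviation of the 3 embryonic globins. The result was 0.01 and 0.38 in Six2Cre knockouts 7 and 9, against -0.17 and -0.18 in controls 5 and 2. It was 0.03 in the CreER knockout, against -0.07 in its control. Every knockout was above every control, but knockout 9 alone was far from the others. The embryonic globins were higher by 0.59 in Six2Cre knockouts and Hba-a1 by 0.22, a shift of 0.37 between them. The shift was 0.18 on slide 1, 0.57 on slide 2 and 0.10 in the CreER pair. It was 0.19 without knockout 9 and 0.56 without knockout 7. With Hbb-bt in place of Hba-a1, by its brightest probe, it was 0.40, and 0.35 with the mean of all Hbb-bt probes. The dimmest Hbb-bt probe gave a Six2Cre difference of 0.45, with 0.68 on slide 1, where the embryonic globins gave 0.33. The remaining probes gave 0.05 and 0.33, so the size of the shift depends on the Hbb-bt probe. The members of this measure were named with results known, and it has no test.

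**Figure D4:**
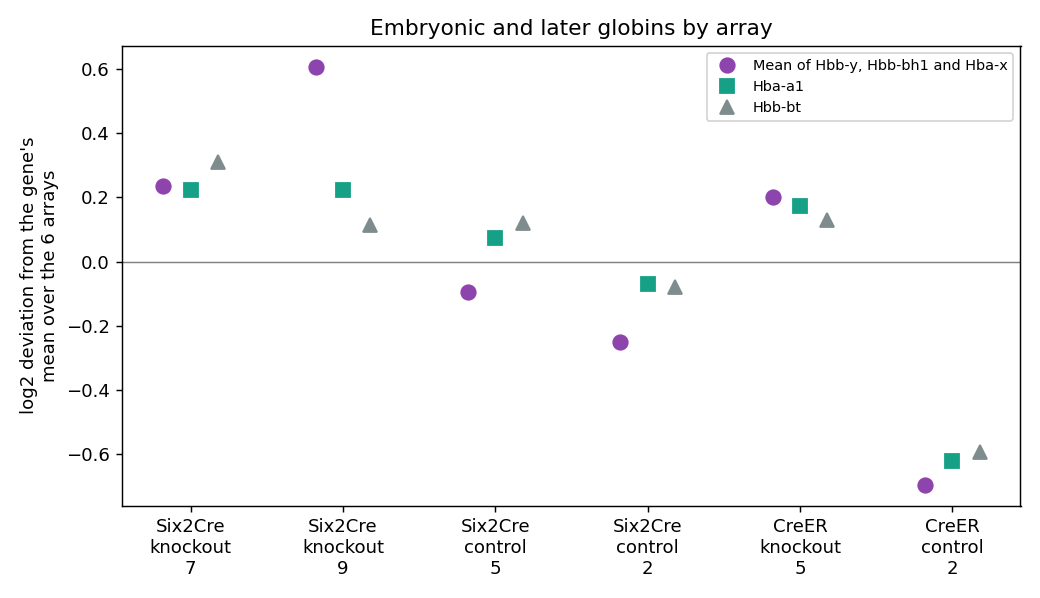
Deviation in log2 units from each gene's mean over the 6 arrays (vertical axis) of the mean of Hbb-y, Hbb-bh1 and Hba-x (circles), of Hba-a1 (squares) and of Hbb-bt (triangles), for each array (horizontal axis, knockouts left of controls within a line). The circles stand clearly above the later globins on Six2Cre knockout 9, at 0.61 against 0.22 for Hba-a1, and the CreER control is lowest for all 3.

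Across the 6 arrays, which share 2 slides and 2 lines, the globins went together. Pearson r with Hbb-y was 0.94 for Hbb-bh1, 0.91 for Hba-x, 0.93 for Hba-a1 and 0.85 for Alas2. Hba-a1 and Hbb-bt had an r of 0.98, and Gata1 and Klf1 an r of 0.76. Epor ran against the globins, with r between -0.73 and -0.61. Gata1 and Klf1 had r between -0.24 and 0.37 with the globins and Alas2. Outside the set, 9316 named genes were well above background on all arrays and ranged over at least 0.5 log2 units. Of these, 8 had an r over 0.95 with the mean pattern of the embryonic globins. Among them were Syt1 (0.98), Pcdhb10 (0.98), Alk (0.98), Gabrd (0.97), Clec5a, Zbtb7c and Tmem270. Among the genes nearest to the mean pattern of Gata1, Klf1 and Alas2 were Megf10 (0.98), Traf3ip3 (0.98), Kel (0.97), Lgi4 (0.95), Myf6 (0.95), Akap6 (0.94) and Ank1 (0.94). Kel, a blood group protein, and Ank1, the red cell ankyrin, are erythroid, and Myf6 is a muscle regulator.

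The wider globin list had 7 measured genes of 12, and all 7 were higher in Six2Cre knockouts, against 53.9% of all features. Counts of higher genes in the lists below are to be read beside that share, and those of the CreER pair beside 48.9%. Their median was 0.32, against 0.03 over all features, with 0.19 on slide 1, 0.57 on slide 2 and 0.75 in the CreER pair. Hbq1a, a theta globin gene, gave 0.32 (SE 0.31) and Hbq1b gave 0.10 (SE 0.28), and the probes of these near copies may read either transcript. In the limma fit none of the 7 passed, as for every list described here. Without Six2Cre control 2 all 7 were again higher, with a median of 0.15.

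The list of erythroid transcription factors went the other way in the Six2Cre line, and leaving out 1 array brought it near 0. Of 16 measured genes 12 were lower and 4 higher, where 53.9% of all features were higher, with a median of -0.34. Without control 2 there were 7 higher and the median was -0.08. Gfi1b, a repressor needed for red cells and platelets, differed by -0.64 (SE 0.67), with 0.05 on slide 1 and -1.34 on slide 2, and 0.28 without control 2. Nfe2, the partner of small Maf proteins in globin gene activation, differed by -0.56 (SE 0.31) and E2f2 by -0.54 (SE 0.29). In the CreER pair 10 of the 16 were higher, with a median of 0.07.

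The red cell membrane and blood group list had the same form. Of 19 measured genes 14 were lower in Six2Cre knockouts (median -0.22), whereas 13 were higher on slide 1 and 2 on slide 2. Without control 2 there were 9 higher and the median was -0.01. Tmod1, the tropomodulin that caps actin filaments in the membrane skeleton, was the largest at -1.81 (SE 0.31, adjusted p = 0.246), with -0.73 in the CreER pair. Add2, beta adducin, differed by -1.22 (SE 0.40) and was 0.27 in the CreER pair. Ank1 was at 0.01 on slide 1 and -1.55 on slide 2, and at -0.17 without control 2. Slc4a1, the anion exchanger band 3 and an erythroid marker, differed by -0.28 (SE 0.27), and by 0.96 in the CreER pair.

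The heme synthesis and iron handling lists had small medians. Of the 12 heme genes 8 were higher in Six2Cre knockouts (median 0.07), against 53.9% of all features. On slide 1 there were 9 higher (median 0.12) and on slide 2 there were 4 (median -0.08). Without control 2 there were 9 higher and the median was 0.22, against 0.01 over all features. Abcb10, a mitochondrial transporter that supports heme synthesis, differed by -0.74 (SE 0.51), with -0.10 on slide 1 and -1.38 on slide 2, and -0.05 without control 2. Cpox differed by -0.38 (SE 0.26) and Ppox, the enzyme after it in the pathway, by 0.32 (SE 0.26). Of the 11 iron genes 6 were higher (median 0.00, and 0.07 without control 2). Steap3, the ferrireductase of erythroid endosomes, gave 1.16 (SE 0.52) but was well above background on 3 of 6 arrays, and Slc40a1, the iron exporter ferroportin, gave 0.66 (SE 0.24, adjusted p = 0.773). Hmox1, heme oxygenase, gave 0.45 (SE 0.28).

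Cytosolic and signalling genes gave no common direction. In the list of red cell cytosol and maturation, 10 of 16 measured genes were lower (median -0.05, and -0.02 without control 2). In the CreER pair 14 were higher, against 48.9% of all features. Pklr, the red cell and liver pyruvate kinase, differed by -0.93 (SE 0.33), Hemgn, a nuclear protein of erythroid cells, by -0.87 (SE 0.57), and Blvrb, a biliverdin reductase, by 0.55 (SE 0.42). Hemgn was at 0.18 on slide 1 and -1.91 on slide 2, and at -0.15 without control 2. In the erythropoietin signalling list with Epor, 6 of 11 measured genes were higher (median 0.00), and 4 without control 2 (median -0.10). Socs2, a feedback inhibitor of cytokine receptors, differed by -0.60 (SE 0.34), Erfe, the hormone erythroferrone, by -0.45 (SE 0.40), and Jak2, the kinase bound to EPOR, by 0.42 (SE 0.41). Jak2 was at 0.24 on slide 1 and 0.60 on slide 2, and at -0.18 in the CreER pair. Without control 2, where the slides are not balanced, it was at -0.03.

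Genes of platelets and of macrophages were also higher on average in the knockouts of both lines, and none passed the test. Of 13 megakaryocyte and platelet genes 12 were higher in Six2Cre knockouts (median 0.41) and 12 were higher in all 3 pairs, against 20.0% of features. Without control 2 there were 11 higher and the median was 0.83, above the medians of the slide 1 pair (0.41) and the slide 2 pair (0.60). Their summed level on the same scale was 4.12 and 5.68 in Six2Cre knockouts 7 and 9, against 2.65 and 3.67 in controls 5 and 2, and 4.82 in the CreER knockout, against 3.68 in its control. Ppbp and Pf4, platelet chemokines, gave 1.24 (SE 0.43) and 0.83 (SE 0.32), and Gp9, a platelet receptor subunit, gave 0.87 (SE 0.26). Of 16 macrophage and leukocyte genes 14 were higher (median 0.64), 13 of them in all 3 pairs. Their summed level was 8.83 and 10.2 in Six2Cre knockouts, against 5.98 and 6.91 in controls, and 8.58 in the CreER knockout, against 7.16 in its control. Cd14 gave 1.05 (SE 0.24), Ptprc 0.87 (SE 0.24) and C1qa 0.80 (SE 0.25). Of 14 endothelial genes 7 were higher in Six2Cre knockouts (median 0.00) and 12 in the CreER knockout (median 0.23). Of 8 mast cell and basophil genes 5 were higher in Six2Cre knockouts (median 0.13, and 0.04 without control 2) and 3 in the CreER knockout (median -0.36), with Hdc, histidine decarboxylase, at -2.05 (SE 0.40). Of 10 hematopoietic progenitor genes 7 were higher in Six2Cre knockouts (median 0.23, with -0.07 on slide 1, and 0.14 without control 2) and 4 in the CreER knockout (median -0.10), with Ly6a at -1.84 (SE 0.38). The part of these cells in the globin values was not tested. Nor was it tested which cells gave the Hdc and Ly6a signals.

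The hepatocyte list was lower in Six2Cre knockouts for all 11 measured genes, with a median of -2.44, and 6 of 11 were higher in the CreER pair (median 0.05). Alb and Afp, the main secreted proteins of fetal liver, differed by -2.84 each (SE 0.69 for Alb and 0.51 for Afp). All 11 were also lower without control 2, with a median of -1.52. The summed level of 4 hepatocyte markers was 1.15 and 0.93 in Six2Cre knockouts 7 and 9, against 4.36 and 12.51 in controls 5 and 2, and 2.23 in the CreER knockout, against 2.05 in its control. Hnf4a, which the proximal tubule expresses too, differed by -3.36 (SE 0.41). All 14 muscle genes were lower (median -1.82), but 8 were higher without control 2 (median 0.02). The 5 muscle markers summed to 0.90 and 0.69 in Six2Cre knockouts, against 0.76 and 12.2 in controls, and to 1.44 in the CreER knockout, against 0.68 in its control. All 12 nephron progenitor genes were lower (median -1.23). The part of these tissues in the red cell values was not tested. Leaving out control 2 cannot decide it, since the hepatocyte markers of control 5, at 4.36, were also above those of both Six2Cre knockouts.

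**Figure D5:**
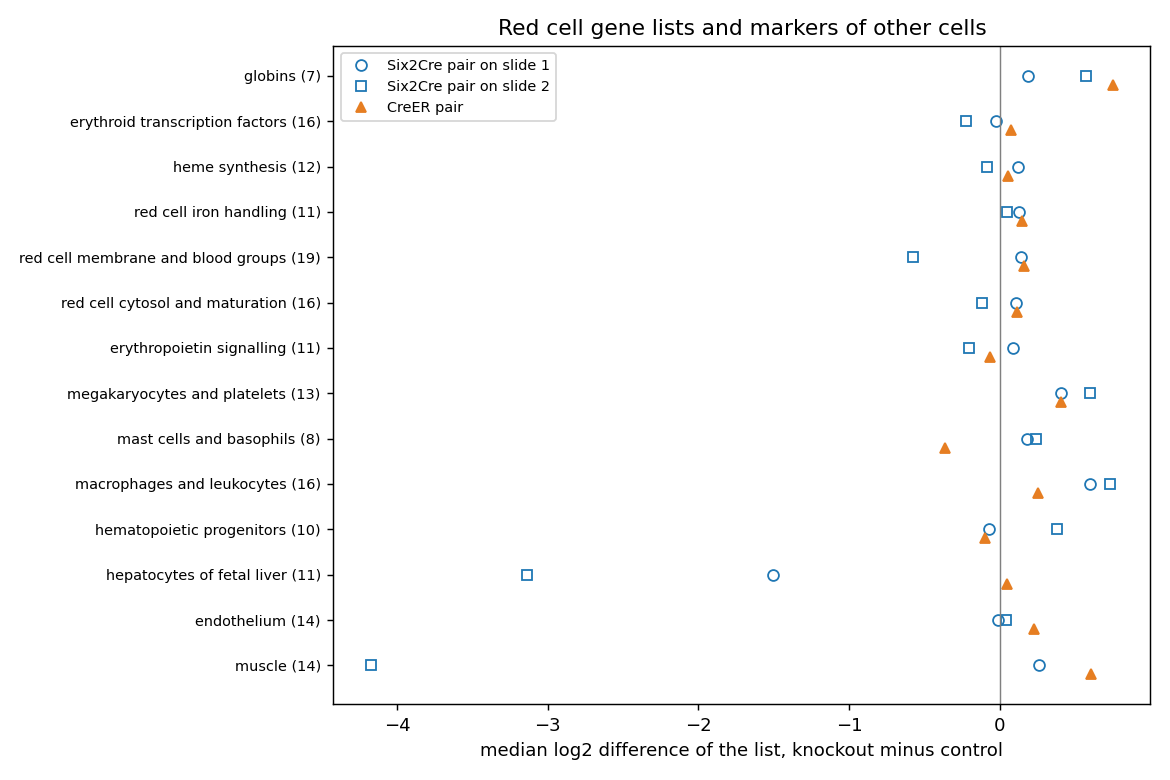
Median log2 difference, knockout minus control (horizontal axis), of each gene list (rows, with the number of measured genes), as open circles and squares for the Six2Cre pairs on slides 1 and 2 and triangles for the CreER pair. The globin medians are 0.19, 0.57 and 0.75, and the transcription factor, membrane, hepatocyte and muscle medians are lower on slide 2 than on slide 1.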

How the data were processed

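Per the labels, 0.25 ug of total RNA per sample was labelled with Cy3, and the scans went through Feature Extraction 10.5.1.1, as the file headers state. The deposited processed signal is a linear intensity from which background and a spatial trend were removed, array by array, with no scaling across arrays, per the file headers. The deposited series matrix repeats this intensity, since 100% of its values for single-spot probes were within a relative 0.001 of it. The line of each sample was read from the style of its title and the design text.

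From these values, spots flagged as outliers were left out, spots of a probe were averaged, and each log2 signal was set relative to its array's 75th percentile. Probes were named by RefSeq accession through the GRCm38.p6 annotation. The probe with the highest mean stood for its gene. Features well above background on at least 2 of 6 arrays were kept, which left 26394 (15234 named genes and 11160 without a matched name). limma 3.58.1 (R 4.3.3, with the data.table package at version 1.17.8) fitted the 4 groups with lmFit and eBayes, with 2 residual degrees of freedom, two-sided tests and a threshold of 0.05 on Benjamini-Hochberg adjusted p-values. A second limma fit took genotype with line and slide. The Six2Cre comparison, without and with the slide as a block, was also run on simulated data with independent noise and planted changes. Those data held no slide, line or tissue effects, so they cannot check the fit against such effects. Figures and other values used Python 3.11.15, pandas 2.3.3 and matplotlib 3.10.9. Alternatives were the slide as a block, other background corrections, scalings, filters and probe rules, the series matrix, and leaving out each array.

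The genes and the 15 lists were chosen with earlier results of these data known. The rule for named genes took the set, Sall1, the 3 other genes of each list with the largest Six2Cre difference, and the 8 genes most like each pattern. Slc4a1 is a fixed erythroid marker. Some genes that the rule takes are not reported here, and Ahsp is not analysed here.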

Additional observations from a re-analysis of the deposited data

How the results depend on the processing

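None of the 8 genes passed an adjusted p of 0.05 with limma under any alternative run. The lowest adjusted p in the Six2Cre comparison was 0.0814 for Hbb-y and 0.115 for Hbb-bh1, with the slide as a block and eBayes trend and robust, which was chosen after seeing the data. Over all 13 settings of that comparison the difference ran from 0.52 to 0.83 for Hbb-y, 0.50 to 1.00 for Hbb-bh1, 0.15 to 0.57 for Hba-x, 0.12 to 0.29 for Hba-a1 and -0.68 to -0.27 for Epor, each with its direction kept. When single arrays were left out, Gata1 ran from -1.03 to 0.00033 (without control 2) and Klf1 from -0.87 to 0.26 (without control 2), with 0.04 without knockout 9. Alas2 was -0.04 without control 5 and -0.13 without knockout 9. In the genotype fit Gata1 ran from -0.51 to 0.12 and Klf1 from -0.54 to 0.37, the highest values being those without control 2 or without knockout 9. The difference between lines for Hbb-bh1 was -0.0123 after quantile normalization. Over all features, the Six2Cre comparison called 0 in the fit reported (959 higher and 713 lower at an unadjusted p under 0.05), 32 higher and 95 lower with the array median as scale, and 305 higher and 322 lower with the block, trend and robust setting. It called 0 without any of the 4 Six2Cre arrays. The genotype fit called 16 higher and 20 lower with normexp background correction, against 0. With normexp, 112 features were at least 2-fold higher and 46 lower in the CreER pair, against 357 and 574. The cause of these moves was not tested. The shift of embryonic against later globins ran from 0.19 to 0.56 when single arrays were left out and was 0.35 with the mean of the Hbb-bt probes, an alternative added after seeing the data. No paired analysis was possible because the knockout and control groups share fewer than 2 replicate numbers, other than by slide: the slide as a block, with 1 residual degree of freedom, pairs the Six2Cre arrays on each slide and called 0 features. For the difference between lines, Alas2 had an adjusted p of 0.885 with the slide as a block, the lowest over its alternatives. The number of arrays limits the precision, most of all for the dim Gata1 and Klf1 probes.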
